A study of Homo sapiens with 9 samples.

Results

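The transcription factor ATF4 and 9 genes of the amino acid stress response that it is known to govern were followed in lymphoma cells carrying mutant BCL10. The 10 genes, ATF4, DDIT3, ASNS, CHAC1, TRIB3, DDIT4, SESN2, PSAT1, PHGDH and SHMT2, were taken by symbol from the 60656 genes of the count table by a rule that uses no measured value, with earlier results of these data known. RNA-seq libraries were made from RIVA cells, a line of the activated B cell type of diffuse large B cell lymphoma, 3 libraries each for cells carrying an empty vector, BCL10 S136X (a truncating mutation) or BCL10 R58Q (a missense mutation). All 9 libraries came from cells with the same doxycycline-inducible pLVX-TetOne lentiviral backbone, induced with doxycycline at 200 ng/mL for 24 h, so the controls received the drug too. The induced BCL10 was added to the BCL10 the cells already had, and no library of induced wild-type BCL10 was compared here.

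BCL10 is an adaptor protein that links antigen receptor signalling to NF-kB. ATF4 belongs to a different circuit, the integrated stress response. In it, kinases that sense lack of amino acids, viral RNA, heme deficiency or unfolded proteins phosphorylate the initiation factor eIF2. Most protein synthesis then slows, while ATF4 mRNA, which carries short upstream reading frames, is translated better. ATF4 protein pairs with other leucine zipper factors on the composite C/EBP-ATF response element and raises genes for amino acid synthesis, uptake and tRNA charging. ATF4 is thus controlled largely at translation, which mRNA levels do not measure. In lymphocytes the same genes feed the growth of activated cells.

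The response element is spelled TGATGNAA, where N is any base, and its letters were searched on both strands in RefSeq windows of 300 bases (GRCh38.p14), which run from 250 bases before to 50 bases after each transcription start. Windows were found for 9 of the 10 members, not for SHMT2. The letters lay upstream of the start in 2 of the 14 windows of the members (14.3%), against 3.14% of the 35116 windows of all genes. These were the window of CHAC1 and 1 of those of ASNS. The letters were also found upstream in windows of 11 other genes of the pathway lists described further on, which have 13 to 21 windows each. The stretches of ASNS and CHAC1 are shown because they hold the letters of the element through which ATF4 is known to act, with those of MTHFD1L, JDP2 and ATF3, whose values are described too. Each is read 5′ to 3′ on the strand of its gene, and the capitals mark the match, which in CHAC1 lies on the opposite strand.
ASNS, chr7:97872439-97872506, minus strand, match 68 to 61 bases before the start: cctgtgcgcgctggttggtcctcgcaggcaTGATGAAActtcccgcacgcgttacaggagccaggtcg
CHAC1, chr15:40953232-40953299, plus strand, match 209 to 202 bases before the start: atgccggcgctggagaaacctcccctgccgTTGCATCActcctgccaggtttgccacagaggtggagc
MTHFD1L, chr6:150866327-150866394, plus strand, match 129 to 122 bases before the start: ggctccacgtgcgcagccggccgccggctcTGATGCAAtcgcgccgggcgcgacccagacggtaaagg
JDP2, chr14:75427976-75428021, plus strand, match 16 to 9 bases before the start: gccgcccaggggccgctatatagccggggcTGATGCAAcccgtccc
ATF3, chr1:212565186-212565253, plus strand, match 191 to 184 bases before the start: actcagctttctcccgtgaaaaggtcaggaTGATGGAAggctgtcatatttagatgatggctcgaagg
A match of letters is a description and does not show that the site is bound in these cells.

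The libraries held 28047713 to 33122267 counts. BCL10 itself was counted 885 to 1268 times in the vector libraries, 9838 to 14293 times in the S136X libraries and 10117 to 10596 times in the R58Q libraries, as the labels have it. The B lineage markers MS4A1, CD79A, CD79B and PAX5 summed to between 2147 and 2723 CPM (counts brought to an equal library size) in every library. Their means in vector, S136X and R58Q went different ways. They were lower in the mutants for MS4A1 (618, 546 and 476 CPM), CD79A (834, 660 and 656 CPM) and CD79B (141, 108 and 114 CPM). For PAX5 they were higher (1016, 1145 and 1076 CPM). T cell and myeloid markers stayed under 1 CPM in sum. Of the epithelial markers, EPCAM lay between 32.9 and 53.6 CPM, with a mean of 44.1 CPM in the vector group, 43.1 CPM in S136X and 44.0 CPM in R58Q. KRT18, the other epithelial marker, lay between 0.167 and 0.831 CPM. The sum of the fibroblast markers COL1A1 and COL1A2 was higher in the mutant libraries (11.9 to 18.1 CPM) than in the vector libraries (5.65 to 8.01 CPM). The 2 fibroblast markers went opposite ways, with mean levels of 3.86, 12.1 and 13.2 CPM for COL1A1 and of 3.18, 2.16 and 1.35 CPM for COL1A2 in vector, S136X and R58Q. The part of these markers in the results was not tested. The column names carry a later date for all R58Q libraries than for the others, so the R58Q group and that date cannot be told apart. The study's text calls the libraries of a group biologic replicates, and the labels do not say how the cultures were separated, so p-values measure the spread between these libraries. In such bulk libraries, fewer cells with a transcript and less transcript per cell cannot be told apart.

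Per kilobase of exon, ATF4 had the highest level of the members in the vector libraries, at 170 ± 12.3 CPM per kb (SD, n = 3). SHMT2, the mitochondrial enzyme that turns serine into glycine and a folate-bound carbon unit, followed at 65.7 ± 8.06 CPM per kb. PSAT1 (19.1 ± 3.16) and PHGDH (16.7 ± 2.03), consecutive enzymes of serine synthesis, came next, and their libraries overlapped. DDIT4 (10.4 ± 0.364), TRIB3 (7.88 ± 0.604) and SESN2 (6.12 ± 0.357) followed without overlap between neighbours. DDIT3 (3.998 ± 0.929) and CHAC1 (2.80 ± 0.704) overlapped, and ASNS was lowest at 0.951 ± 0.148 CPM per kb. For ASNS this level is uncertain, because 83.0% of the 31-base words of its longest transcript also occur in AC079781.5, a gene annotated on the same strand over 1985 bases of its exons, which was itself counted 21 to 67 times per library. ATF4 shared 37.5% of its words with other genes, mainly the pseudogenes ATF4P3 and ATF4P4, counted at most 6 times, and PSAT1 shared 15.6%, mainly with PSAT1P3, counted at most 3 times. DDIT3 lay over exons of MARS1 on the opposite strand for 355 bases, and MARS1 was counted 6790 to 8689 times against 129 to 198 times for DDIT3. SHMT2 overlapped AC137834.2 (1 to 10 counts) and DDIT4 overlapped DDIT4-AS1 (2 to 19 counts) on the opposite strand. Whether the counting used strand is not given in the sources used here, so reads from these partners cannot be told apart. The exon length used here joins the exons of all annotated transcripts. It is 9217 bases for PHGDH, whose longest transcript holds only 3150 of the 31-base words, and 2188 bases for PSAT1. The order of PSAT1 and PHGDH per kilobase, and their overlap, rest on that choice. In CPM the vector mean of PHGDH was the higher, at 154 against 41.9.

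Both mutants were first set against the vector. The quasi-likelihood test of edgeR, adjusted by Benjamini and Hochberg over the whole table, called 3.87% of 15530 genes in S136X and 7.63% of 15435 genes in R58Q. A gene counted as called when its adjusted p was under 0.05 and its levels differed 1.5-fold or more. All 10 members passed the filter on low counts, and 0 of the 10 were called in either comparison. At an unadjusted p under 0.05 there were 2 members in S136X (CHAC1 and TRIB3) and 3 in R58Q (ATF4, TRIB3 and DDIT4), where 26.7% and 36.1% of all genes had one. DESeq2 called 1 member, CHAC1 in S136X. At any fold, 0 members passed the adjusted p in S136X, where 10.1% of all genes did, and 1 passed in R58Q, ATF4, where 21.0% did. The median log2 fold change of the members was 0.15 in S136X and 0.11 in R58Q, beside -0.02 and -0.03 over all genes tested. The 2 comparisons share the vector libraries, and for that reason their values stand side by side without a measure of likeness.

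**Figure D1:**
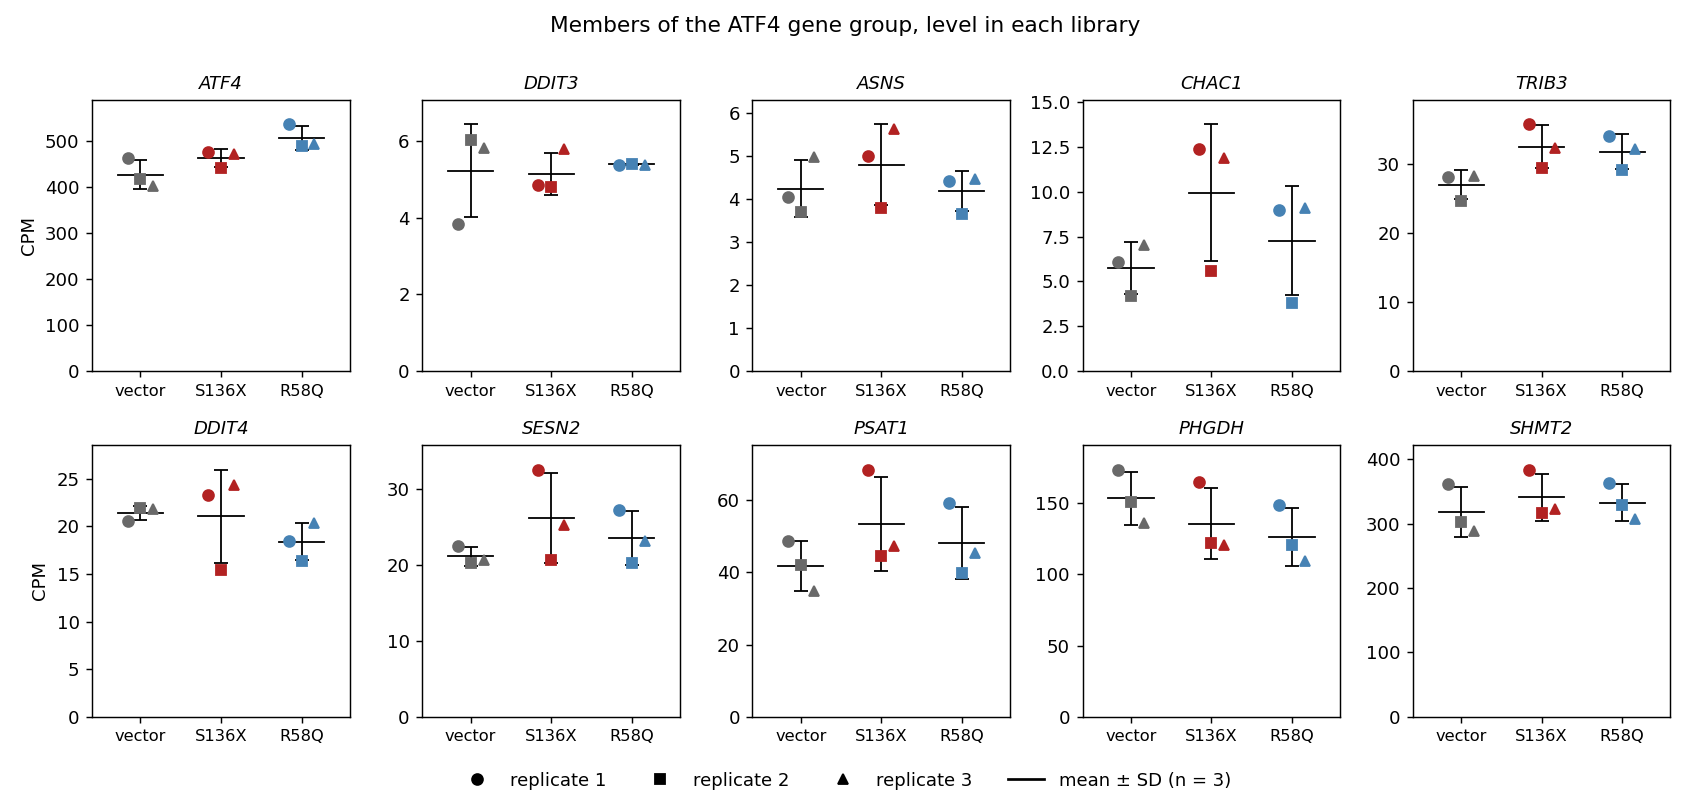
Level of each of the 10 members in CPM (linear axes from 0) in the 3 vector, 3 S136X and 3 R58Q libraries. Symbols stand for replicate numbers and the bars for the mean ± SD. In ATF4 the 3 R58Q libraries lie between 490 and 537 CPM, above every vector library, while in CHAC1, PSAT1 and SESN2 the groups overlap.

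Libraries with the same replicate number deviated together from their group means (r = 0.143 to 0.626). The pairing was weak for vector replicate 2, whose r with S136X replicate 2 was 0.143, against 0.127 for vector replicate 3. Each comparison was also fitted with the replicate number as a block. This fit removes the spread that same-numbered libraries share, and with it 24.7% of all genes passed the adjusted p at any fold in S136X and 35.2% in R58Q. Of the members, 5 of 10 passed in S136X. CHAC1, TRIB3, SESN2 and PSAT1 were higher, against 12.9% of all genes, and PHGDH was lower, against 11.8%. In R58Q 3 of 10 passed, with ATF4 and TRIB3 higher, against 18.2% of all genes, and PHGDH lower, against 17.0%. The shifts were small in both fits, and CHAC1 was the only member whose estimate reached 1.5-fold.

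**Figure D2:**
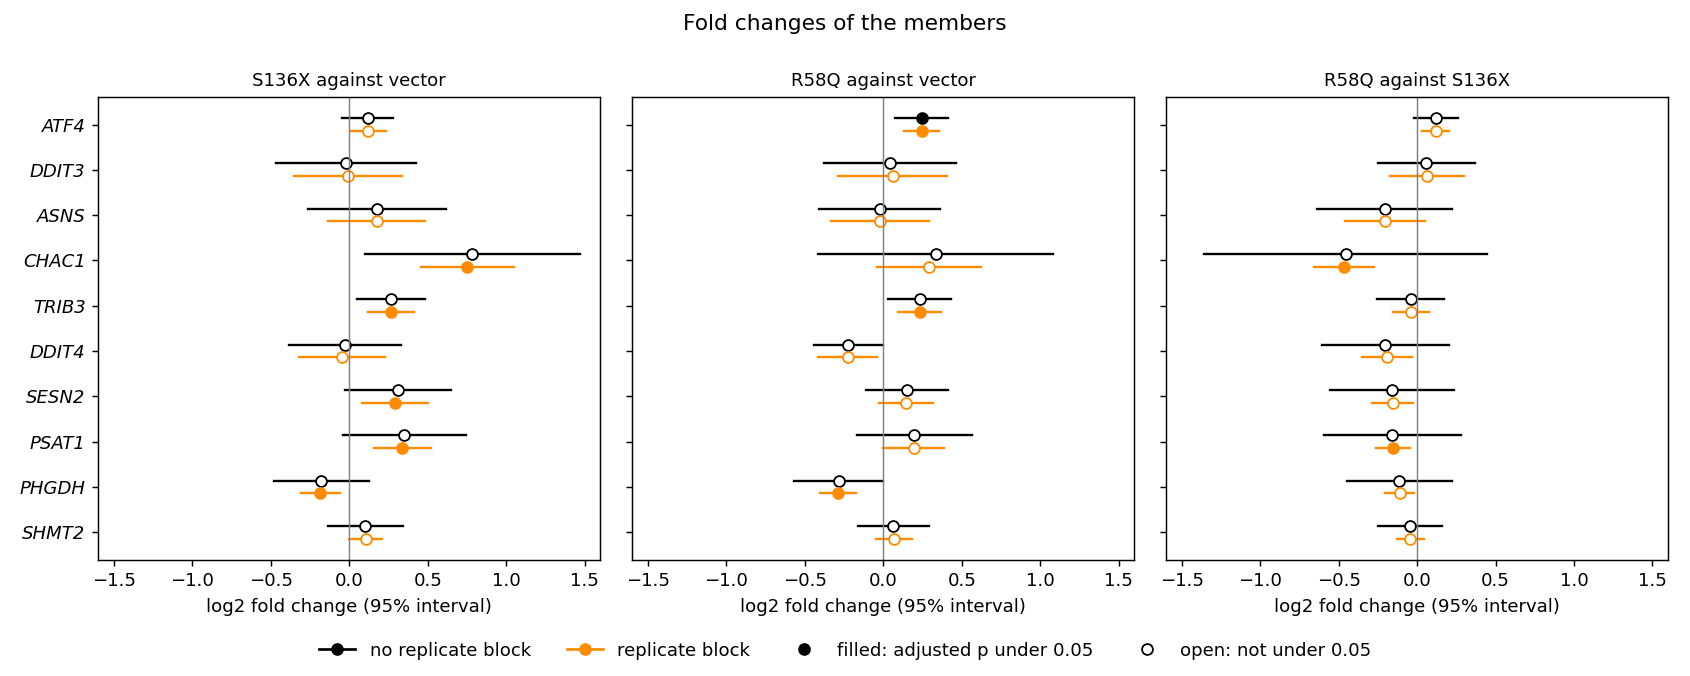
Log2 fold change of each member with its 95% interval, fitted without (black) and with (orange) the replicate number as a block, for the 3 comparisons. Filled points passed an adjusted p under 0.05; without the block this is ATF4 in R58Q alone, and with it CHAC1 in S136X has the largest estimate, 0.75.

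ATF4 mRNA passed the test in R58Q, narrowly, and not in S136X. It stood at 463, 417 and 404 CPM in vector replicates 1, 2 and 3, at 477, 442 and 473 CPM in S136X, and at 537, 490 and 495 CPM in R58Q. All R58Q libraries were above all vector libraries, whereas the S136X libraries overlapped the vector. In R58Q ATF4 rose 1.18-fold (log2 0.24 ± 0.07 SE, edgeR adjusted p = 0.0475). That call sat close to the threshold. It was lost with upper-quartile normalization (adjusted p = 0.104), with total counts only (adjusted p = 0.0696) and in 5 of the 6 fits that left out 1 library, all but the one without vector replicate 1, and with the replicate block its adjusted p was 0.00481. Over all alternatives the adjusted p ran up to 0.167. In S136X the log2 difference was 0.12 ± 0.07 SE and did not pass (edgeR adjusted p = 0.332).

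DDIT3, also known as CHOP, encodes a leucine zipper factor that acts with ATF4 and promotes death under lasting stress. It was counted 3.83, 6.02 and 5.83 CPM in the vector libraries, 4.85, 4.81 and 5.79 CPM in S136X, and 5.39, 5.41 and 5.38 CPM in R58Q. The R58Q libraries lay within the range of the vector libraries, and vector replicate 1 was the lowest of all. The 95% intervals, -0.47 to 0.42 on the log2 scale for S136X and -0.38 to 0.46 for R58Q, leave room for changes of up to 1.38-fold in either group. DDIT3 is also induced in the unfolded protein response, of which it is a common marker.

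The largest shift among the members was in CHAC1, which encodes an enzyme that breaks down glutathione. The vector libraries held 6.08, 4.19 and 7.03 CPM, the S136X libraries 12.4, 5.58 and 11.9 CPM, and the R58Q libraries 8.96, 3.77 and 9.12 CPM. Replicate 2 was the lowest of its group in each case, so the groups overlapped although each S136X library was above its same-numbered vector library. The estimate in S136X was 1.72-fold (log2 0.78 ± 0.30 SE, edgeR adjusted p = 0.139). With the replicate block the log2 fold change was 0.75 ± 0.13 SE (edgeR adjusted p = 0.00294). CHAC1 also passed with DESeq2 (adjusted p = 0.0312), without the filter on low counts (adjusted p = 0.00579) and without S136X replicate 2 (log2 1.09, adjusted p = 0.0216), while the highest adjusted p over the alternatives was 0.371. In R58Q the log2 difference was 0.34 ± 0.33 SE and did not pass in any fit. These values rest on 113 to 363 counts per library.

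TRIB3 encodes a pseudokinase that ATF4 induces and that in turn restrains ATF4 and DDIT3. Its levels were 28.2, 24.7 and 28.3 CPM in the vector libraries, 35.8, 29.5 and 32.4 CPM in S136X, and 34.1, 29.2 and 32.2 CPM in R58Q. Every mutant library was above every vector library. In S136X the ratio was 1.203-fold (log2 0.27 ± 0.10 SE, edgeR adjusted p = 0.115, and 0.0152 with the replicate block). In R58Q it was 1.17-fold (log2 0.23 ± 0.09 SE, edgeR adjusted p = 0.0956, and 0.0175 with the replicate block). Over the alternatives the adjusted p reached 0.327 in S136X and 0.267 in R58Q. Libraries that did not overlap were common in these data, at 31.3% of all genes for S136X and 40.5% for R58Q. Among the members they were 1 of 10 in S136X (TRIB3) and 3 of 10 in R58Q (ATF4, TRIB3 and DDIT4).

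Both DDIT4 and SESN2 encode brakes on the growth kinase mTORC1. DDIT4, also induced by low oxygen and glucocorticoids, acts through the TSC complex, and SESN2, a sensor of leucine, acts through GATOR2. DDIT4 stood at 20.6, 21.9 and 21.8 CPM in the vector libraries, at 23.3, 15.5 and 24.4 CPM in S136X, and at 18.5, 16.4 and 20.3 CPM in R58Q. In R58Q all libraries were below the vector, yet the log2 difference of -0.22 ± 0.10 SE did not pass (edgeR adjusted p = 0.136, and 0.0637 with the replicate block). In S136X replicate 2 was below and the others above every vector library. SESN2 was at 22.5, 20.2 and 20.7 CPM in the vector, at 32.5, 20.7 and 25.3 CPM in S136X, and at 27.2, 20.2 and 23.2 CPM in R58Q. The highest SESN2 value was that of S136X replicate 1, and the replicate 2 libraries of the 3 groups were within 1 CPM of each other. The SESN2 estimate in S136X was log2 0.31 ± 0.15 SE (edgeR adjusted p = 0.226, and 0.0476 with the replicate block), and without S136X replicate 1 it was 0.12.

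The 4 enzymes of amino acid synthesis did not move as a group. ASNS, which makes asparagine from aspartate and glutamine, was at 4.04, 3.70 and 4.97 CPM in the vector, at 4.99, 3.78 and 5.61 CPM in S136X and at 4.41, 3.64 and 4.47 CPM in R58Q. Its groups overlapped throughout, and the 95% interval in R58Q ran from -0.41 to 0.36 on the log2 scale. PSAT1, the transaminase of serine synthesis, was at 48.7, 42.2 and 34.8 CPM in the vector, at 68.4, 44.5 and 47.3 CPM in S136X and at 59.3, 39.8 and 45.4 CPM in R58Q. Each S136X library was above its same-numbered vector library, and the estimate was log2 0.35 ± 0.17 SE (edgeR adjusted p = 0.235, and 0.0134 with the replicate block).

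PHGDH, which catalyses the first step of serine synthesis, went the other way. It was at 173, 151 and 136.2 CPM in the vector, at 165, 122 and 120 CPM in S136X and at 149, 121 and 109 CPM in R58Q. Each mutant library was below its same-numbered vector library, while the groups overlapped. The log2 difference was -0.18 ± 0.13 SE in S136X (edgeR adjusted p = 0.433, and 0.0351 with the replicate block). In R58Q it was -0.28 ± 0.12 SE (edgeR adjusted p = 0.140, and 0.00234 with the replicate block). Over the alternatives the PHGDH adjusted p reached 0.766 and 0.359, and without R58Q replicate 1 PHGDH passed in R58Q (log2 -0.41, adjusted p = 0.0345). SHMT2 was at 362, 303 and 288 CPM in the vector, at 384, 317 and 323 CPM in S136X and at 363, 328 and 307 CPM in R58Q. Its 95% intervals ran from -0.14 to 0.34 in S136X and from -0.16 to 0.29 in R58Q on the log2 scale, so a change of more than 1.27-fold lies outside both.

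The mutants were then compared with each other. The members called were 0 of 10, with 0.434% of 15195 genes called in the whole table, and 0 members had an unadjusted p under 0.05 in edgeR (11.0% of all genes) or were called by DESeq2. At any fold 0.533% of all genes passed, and 0 members did. The median log2 fold change of R58Q over S136X was -0.14 for the members and 0.00 for all genes. ATF4 was the 1 member of 10 whose libraries did not overlap (17.2% of all genes), at log2 0.12 ± 0.06 SE (edgeR adjusted p = 0.534). With the replicate block 2 of 10 members passed, where 14.6% of all genes did. CHAC1 was lower in R58Q than in S136X in each of the 3 same-numbered pairs, with a blocked log2 difference of -0.47 ± 0.09 SE (edgeR adjusted p = 0.00150, against 0.785 without the block). PSAT1 was also lower in each pair, at -0.15 ± 0.05 SE (edgeR adjusted p = 0.0484, against 0.864 without the block). Neither passed under any other alternative.

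In 8 of the 10 members the levels varied more between replicate numbers than between BCL10 states. The share of all genes for which this holds is not given here. Same-numbered libraries deviated together over the whole table, so whether the pattern is particular to the members was not tested. On the log2 CPM scale, the replicate number accounted for 83.7% of the sum of squares of SHMT2 over the 9 libraries, 73.3% of that of ASNS, 67.3% of CHAC1, 66.2% of PHGDH and 63.7% of PSAT1. The BCL10 state accounted for 11.1% in SHMT2 and for 3.40% in DDIT3. ATF4 and TRIB3 were the 2 members for which the BCL10 state had the larger share, 70.4% and 58.2%. Replicate 1 was the highest of its group in all 3 groups for ATF4, SESN2, PSAT1, PHGDH and SHMT2. Replicate 2 was the lowest in all 3 groups for ASNS, CHAC1, TRIB3 and SESN2.

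**Figure D3:**
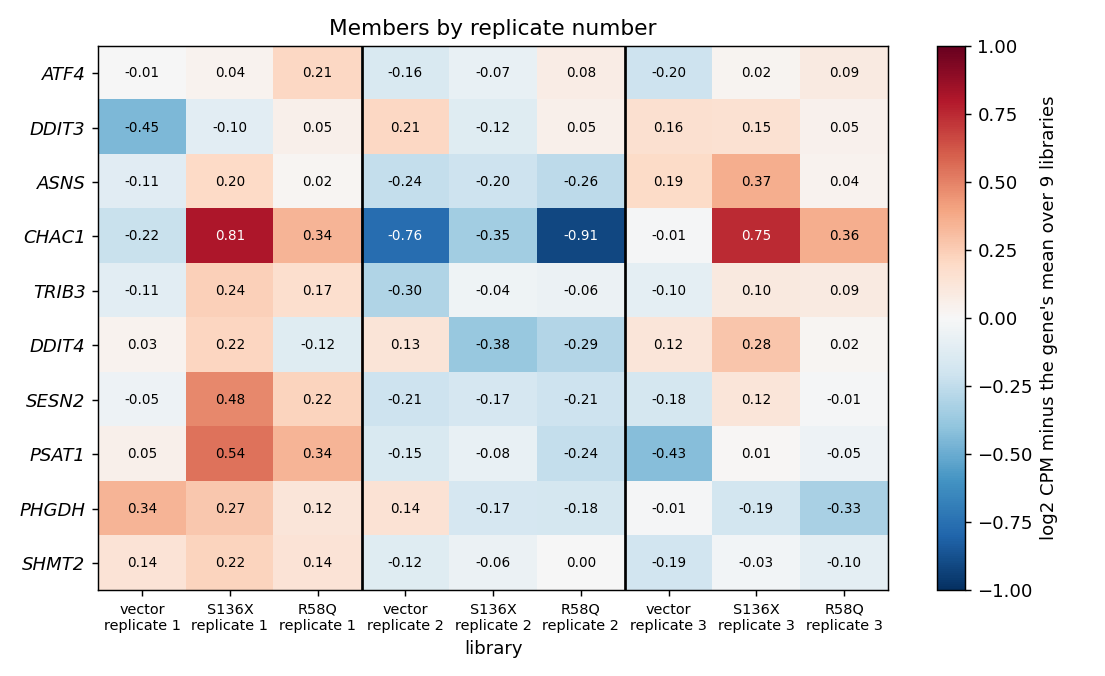
Log2 CPM of each member in each library minus its mean over the 9 libraries, with libraries ordered by replicate number (black lines) and, within it, by vector, S136X and R58Q. CHAC1 has the widest range, 1.70 on the log2 scale, with all replicate 2 libraries below its mean, and PHGDH and SHMT2 are above their means in all replicate 1 libraries.

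The members also varied together within groups. Over the 9 libraries, with each group's mean taken out, the median Pearson r of the 45 pairs of members was 0.555, and 10 pairs were above 0.8. The highest were PHGDH with SHMT2 (0.954), PSAT1 with PHGDH (0.919), CHAC1 with TRIB3 (0.895) and ASNS with CHAC1 (0.889). DDIT3 stood apart, with a part in 6 of the 8 negative pairs, the lowest being DDIT3 with SHMT2 (-0.675). These points share libraries, depth and replicate numbers, and the correlations are given as a description. The genes most like the mean standardised level of the members over the 9 libraries, of 14953 genes compared, were PQBP1 (Pearson r = 0.958), PPARGC1B (0.950), RHOD (0.946), KREMEN2 (0.939) and PPP6R2 (0.937).

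Other genes of the pathway were read from 6 lists with 82 genes, of which 78 were tested. At any fold 18 of them rose and 0 fell in S136X (6.03% and 4.10% of all genes), and 26 rose and 2 fell in R58Q (12.3% and 8.76% of all genes). With the replicate block these were 39 and 4 in S136X (12.9% and 11.8% of all genes), and 35 and 4 in R58Q (18.2% and 17.0% of all genes). Without the block, leaving out vector replicate 2 brought the genes that rose to 5 (S136X) and 9 (R58Q), and leaving out vector replicate 1 brought them to 23 and 29. Leaving out single mutant libraries gave 8 to 14 in S136X and 14 to 25 in R58Q. What moved these counts was not tested. With upper-quartile normalization 12 and 17 genes rose. The genes called at 1.5-fold were 3 in S136X and 6 in R58Q, beside the 3.87% and 7.63% of the whole table. The median log2 fold change of the 78 genes was 0.19 in S136X and 0.16 in R58Q.

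**Figure D4:**
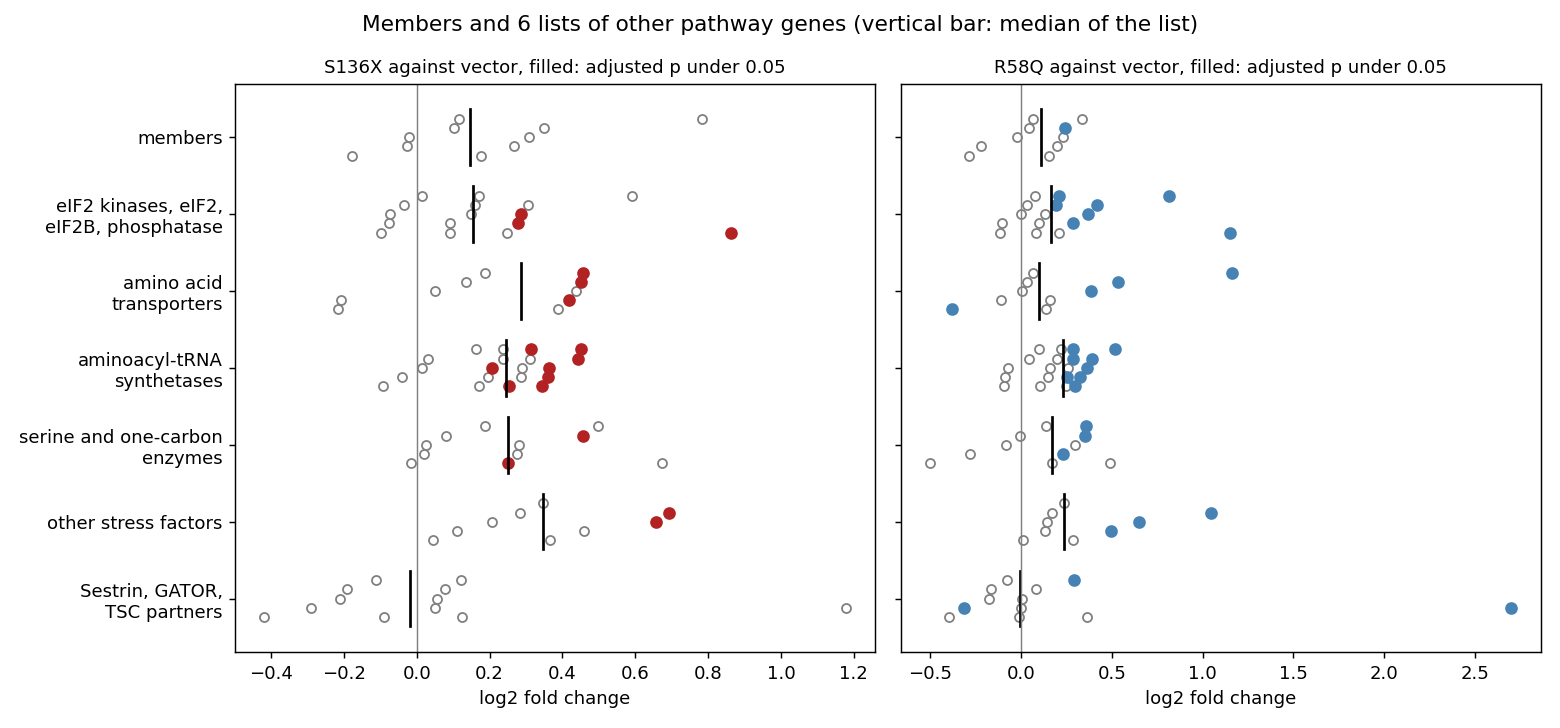
Log2 fold change against vector of the 10 members and of the tested genes of 6 further lists, with the median of each list as a bar and filled points for an adjusted p under 0.05. The axes of the 2 panels differ in range. The single point at 2.70 in R58Q is CASTOR1, and the aminoacyl-tRNA synthetases have 8 filled points in each panel.

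PPP1R15A showed the clearest change of the list that senses and resets eIF2. It encodes GADD34, which brings a phosphatase to eIF2 and so ends the response. Its levels were 119, 119 and 130 CPM in the vector, 235, 230 and 205 CPM in S136X and 297, 252 and 270 CPM in R58Q. Every mutant library was far above the vector, and it rose 1.82-fold in S136X (log2 0.86 ± 0.07 SE, edgeR adjusted p = 0.000366) and 2.22-fold in R58Q (log2 1.15 ± 0.08 SE, edgeR adjusted p = 7.52e-05). These calls were kept in all 6 fits that left out 1 library. Of the 16 genes of the list, 3 rose in S136X (EIF2B2, EIF2S1 and PPP1R15A) and 7 in R58Q, those 3 among them (6.03% and 12.3% of all genes). With the replicate block 7 and 8 were higher (12.9% and 18.2% of all genes). The smallest changes that passed were EIF2B2 in S136X (log2 0.28) and EIF2B1 in R58Q (log2 0.19), subunits of the exchange factor that recharges eIF2, and these were lost in 3 and 5 of the 6 fits without 1 library. EIF2AK2, the interferon-induced kinase PKR that senses double-stranded RNA, was named after its values were seen. It rose 1.76-fold in R58Q (log2 0.81 ± 0.19 SE, edgeR adjusted p = 0.0209), and the call was lost without R58Q replicate 3 and without vector replicate 1 or 2. In S136X EIF2AK2 did not pass in the first edgeR fit but was higher with the replicate block (log2 0.54, edgeR adjusted p = 0.00975).

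Among the amino acid transporters, SLC3A2 differed between the mutants. It encodes the heavy chain CD98 that carries the light chains SLC7A5 and SLC7A11 to the cell surface. It was at 165, 155 and 147 CPM in the vector, at 226, 204 and 212 CPM in S136X and at 391.9, 325.4 and 330.4 CPM in R58Q, and the 3 groups did not overlap. SLC3A2 rose 1.37-fold in S136X (log2 0.46 ± 0.07 SE, edgeR adjusted p = 0.00519) and 2.24-fold in R58Q (log2 1.16 ± 0.09 SE, edgeR adjusted p = 0.000133). SLC3A2 alone of the 78 passed between R58Q and S136X in edgeR with the filter on low counts and without the block (log2 0.70 ± 0.08 SE, adjusted p = 0.0154). That call was lost without R58Q replicate 3, S136X replicate 2 or S136X replicate 3 (adjusted p up to 0.140). Without the filter 3 genes of the lists were higher. With the replicate block 7 of the 78 were higher and 9 lower in R58Q than in S136X, where 14.6% of all genes passed in either direction. In each mutant 3 of 10 transporters rose, beside 6.03% of all genes in S136X and 12.3% in R58Q. They were the same 3, SLC3A2, SLC1A5 and SLC7A1, in comparisons that share the vector libraries. The share of all genes that rose in both is not given here. Under the replicate block 4 transporters were higher and 2 lower in S136X (12.9% and 11.8% of all genes). In R58Q 3 were higher and 1 lower (18.2% and 17.0% of all genes). SLC7A5, named after its values were seen, was the transporter added to the higher ones in S136X (blocked log2 0.44, edgeR adjusted p = 0.000173, against 0.131 without the block). In R58Q its blocked log2 difference from vector was 0.01, and it was lower in R58Q than in S136X with the block (log2 -0.44, edgeR adjusted p = 3.38e-07, against 0.323 without it). SLC7A1, a carrier of arginine and lysine, had the smallest rise in S136X (log2 0.42, lost without vector replicate 2), and SLC1A4, a carrier of neutral amino acids, fell in R58Q (log2 -0.38 ± 0.10 SE, edgeR adjusted p = 0.0316), a call lost in 4 of the 6 fits without 1 library.

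**Figure D5:**
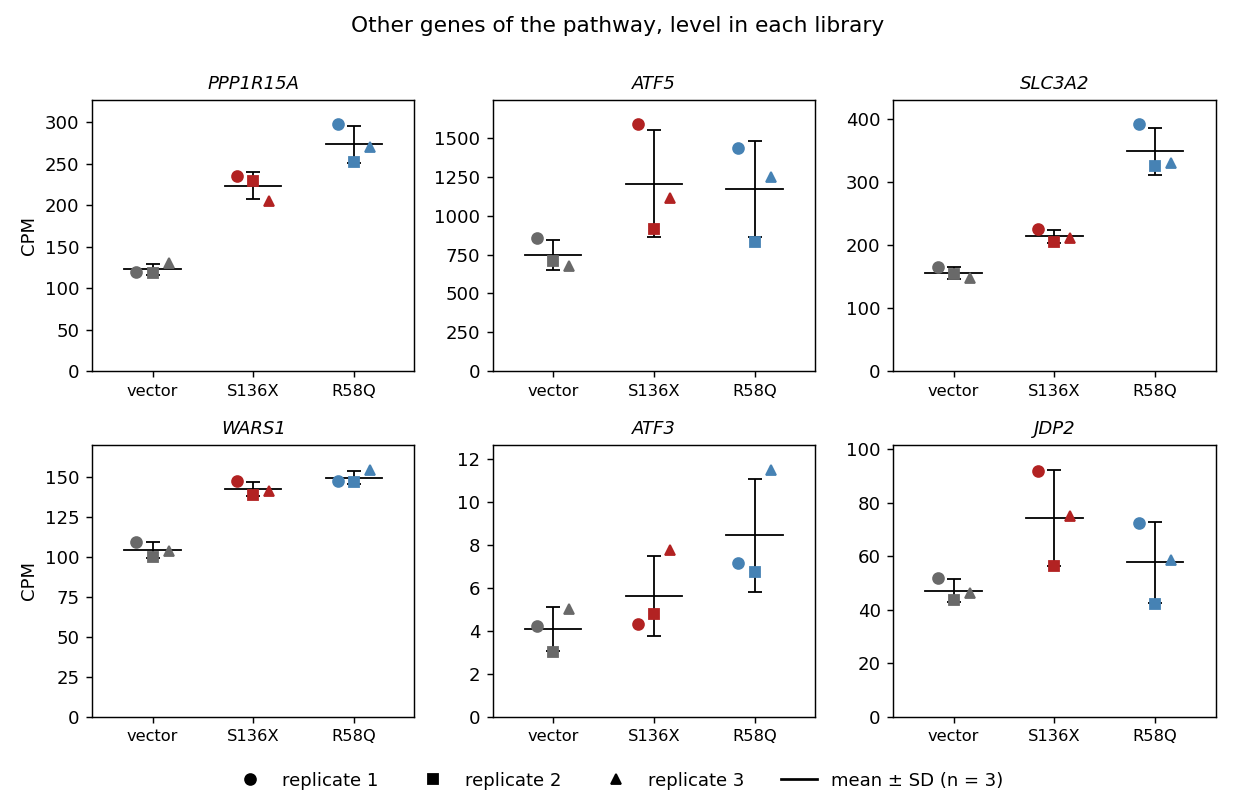
Level in CPM (linear axes from 0) of 6 other genes of the pathway in each library, with symbols for replicate numbers and bars for the mean ± SD. PPP1R15A, SLC3A2 and WARS1 show mutant libraries well apart from the vector, and ATF5 and JDP2 show a low replicate 2 in both mutant groups.

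The cytosolic aminoacyl-tRNA synthetases, which load amino acids onto their tRNAs, were 20 genes. Of these, 8 rose, 0 fell and 12 did not pass in each mutant. Of all genes, 6.03% rose in S136X and 12.3% in R58Q. The same 7 synthetases rose in both, in comparisons that share the vector libraries. The share of all genes that rose in both is not given here. With the replicate block 16 synthetases were higher in S136X and 13 in R58Q, beside 12.9% and 18.2% of all genes. The median log2 fold changes of the synthetases were 0.25 (S136X) and 0.23 (R58Q). With upper-quartile normalization 3 rose in S136X and 4 in R58Q, with total counts only 4 and 7, and with single libraries left out 2 to 11 in each mutant, lowest without vector replicate 2, while 0 fell in any of these fits. The largest was WARS1, the tryptophan enzyme and also an interferon-induced gene, at 109, 99.9 and 103 CPM in the vector, 147, 139 and 141 CPM in S136X and 147, 147 and 154 CPM in R58Q. WARS1 rose 1.37-fold in S136X (edgeR adjusted p = 0.00334) and 1.43-fold in R58Q (edgeR adjusted p = 0.00104), and neither call was lost when a library was left out. The smallest rises were those of HARS1, the histidine enzyme (log2 0.21 in S136X and 0.25 in R58Q), and the first of these was lost in all 6 fits without 1 library.

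Of the serine, folate and amino acid synthesis enzymes beyond the members, 2 of the 11 tested rose in S136X (MTHFD1L and ALDH18A1) and 3 in R58Q (these and MTHFD2). Of all genes 6.03% and 12.3% rose. Under the replicate block 7 were higher and 0 lower in S136X (12.9% and 11.8% of all genes). In R58Q 4 were higher and 1 lower, GPT2 (18.2% and 17.0% of all genes). MTHFD1L, which releases formate in mitochondria, had the largest rise of those that passed without the block, at 44.1, 39.8 and 42.4 CPM in the vector, 59.8, 57.8 and 55.9 CPM in S136X and 54.4, 53.8 and 53.9 CPM in R58Q. MTHFD1L rose 1.37-fold in S136X (edgeR adjusted p = 0.00499) and 1.28-fold in R58Q (edgeR adjusted p = 0.00614). CTH in S136X (log2 0.67) and PYCR1 in both mutants (log2 0.50 and 0.49) were named after their values were seen. Their estimates were larger but did not pass in the first edgeR fit, without the block. ALDH18A1, of proline synthesis, rose least (log2 0.25 and 0.23), and these calls were lost in 5 and 4 of the 6 fits without 1 library.

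Of the other stress transcription factors and effectors, 2 of the 9 tested rose in S136X (ATF5 and JDP2) and 3 in R58Q (ATF3, ATF5 and GADD45A). The shares of all genes that rose were 6.03% and 12.3%. Under the replicate block 4 were higher and 0 lower in S136X (12.9% and 11.8% of all genes). In R58Q these were also 4 and 0 (18.2% and 17.0% of all genes). ATF5, a factor controlled at translation much as ATF4 is, was at 857, 708 and 676 CPM in the vector, at 1587, 916 and 1114 CPM in S136X and at 1435, 830 and 1249 CPM in R58Q. ATF5 rose 1.61-fold in S136X (log2 0.69 ± 0.18 SE, edgeR adjusted p = 0.0473) and 1.57-fold in R58Q (log2 0.65 ± 0.19 SE, edgeR adjusted p = 0.0410). These 2 calls did not hold without vector replicate 2 or 3, nor without replicate 3 of the mutant, nor, in R58Q, without R58Q replicate 1 (adjusted p up to 0.167 and 0.139). Both were also lost with upper-quartile normalization and with all 9 libraries in one fit, and the first with total counts only as well. With the replicate block the ATF5 edgeR adjusted p was 0.000468 in S136X and 0.00239 in R58Q. JDP2, a repressor that binds AP-1 and ATF sites, rose 1.58-fold in S136X (edgeR adjusted p = 0.0331), a call lost without S136X replicate 3, vector replicate 2 or vector replicate 3, and with all 9 libraries in one fit. Its blocked edgeR adjusted p was 0.000499 in S136X and 0.0523 in R58Q. ATF3, an early stress factor, was at 4.21, 3.03 and 5.03 CPM in the vector and at 7.14, 6.75 and 11.5 CPM in R58Q. ATF3 rose 2.07-fold there (log2 1.05 ± 0.25 SE, edgeR adjusted p = 0.0230), a call lost without R58Q replicate 3 or vector replicate 2. Its blocked edgeR adjusted p was 0.000453 in R58Q and 0.0664 in S136X. GADD45A, a stress gene of cell cycle arrest, rose least in R58Q (log2 0.49), a call lost in 3 of the 6 fits without 1 library.

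The 12 genes of the list of Sestrin, GATOR and TSC partners had estimates on both sides, 6 higher and 6 lower in S136X and 5 and 7 in R58Q. In S136X 0 passed in edgeR (10.1% of all genes), 4 had an unadjusted p under 0.05 (26.7% of all genes) and 0 passed in DESeq2. In R58Q 2 rose (CASTOR1 and WDR24) and 1 fell (TSC1), beside 12.3% and 8.76% of all genes. Under the replicate block 1 was higher (CASTOR1) and 2 lower (SESN3 and TSC1) in S136X (12.9% and 11.8% of all genes). In R58Q 3 were higher and 2 lower (18.2% and 17.0% of all genes). SESN3, a further Sestrin named after its values were seen, was lower in S136X (blocked log2 -0.43, edgeR adjusted p = 0.00311). In R58Q SESN3 was higher (blocked log2 0.36, edgeR adjusted p = 0.00515), and neither difference passed without the block (adjusted p = 0.186 and 0.0997). CASTOR1, an arginine sensor, was counted only 5, 8 and 15 times in the vector, 15, 18 and 24 times in S136X and 61, 57 and 51 times in R58Q. In R58Q CASTOR1 rose 6.51-fold (log2 2.70 ± 0.35 SE, edgeR adjusted p = 0.00195). CASTOR1 shares 77.2% of its 31-base words with AC004997.1, counted at most 3 times, so its level is uncertain. TSC1, a subunit of the complex on which DDIT4 acts, fell in R58Q (log2 -0.31 ± 0.08 SE, edgeR adjusted p = 0.0289), a call lost in 4 of the 6 fits without 1 library.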

How the data were processed

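The authors deposited 1 table of raw read counts per gene for the 9 libraries, with normalized counts beside them that were not used here. Per the labels, mRNA libraries were prepared with a NuGEN Universal Plus kit. The submitters' processing notes name hg38, STAR, cutadapt and Picard; versions, the counting program and its strand setting are not given in the sources used here.

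Each comparison was fitted on its own 6 libraries in edgeR 4.0.16 (R 4.3.3). Low counts were removed by filterByExpr. A gene needed about 10 counts, scaled to library size, in as many libraries as a group holds, and 15 in total. Scaling was by TMM, and the quasi-likelihood F test was adjusted by Benjamini and Hochberg over all genes tested. The SE was obtained by dividing the log2 fold change by the square root of F. A call needed a 1.5-fold difference with an adjusted p under 0.05. CPM used TMM factors over all 9 libraries, and log2 CPM a prior count of 2. Coordinates and exon lengths follow GENCODE release 29 and promoter windows RefSeq. The code was tested on simulated data.

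Replicate numbers were taken from the labels. Same-numbered libraries correlated in their deviations from the group means (9 pairs, r = 0.143 to 0.626, median 0.425), and on that ground the blocked values are given. The median for different numbers was -0.251, but deviations within a group cancel, so it is no independent support. Pairing was weak for vector replicate 2, at r = 0.143 with S136X replicate 2 and 0.163 with R58Q replicate 2. Vector replicate 3 correlated with those libraries at 0.127 and 0.169.

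One cell type marker is not reported here. The members and lists were chosen with earlier results of these data known. Genes named from the lists by rule were those called in both mutants and, per list, the highest and lowest log2 fold change among genes with an adjusted p under 0.05 in each mutant. EIF2AK2, SLC7A5, SESN3, CTH, PYCR1 and GPT2 fell outside this rule and were named after their values were seen. So were EIF2S1, SLC1A5, MTHFD2 and WDR24, which are listed only as having passed. Alternatives were DESeq2 1.42.0, scaling by the upper quartile or by total counts, no filter, all 9 libraries in 1 fit, the replicate block, each library left out and other thresholds.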

Additional observations from a re-analysis of the deposited data

How the results depend on the processing

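The count of members called at 1.5-fold was 0 in each comparison. It became 1 in S136X with DESeq2, with no filter and with the replicate block (CHAC1 in each), and 1 in R58Q at any fold (ATF4). Leaving out each library gave 0 to 1 in S136X, and 0 in R58Q and between the mutants. For the other pathway genes, the 3 called in S136X became 5 with no filter, 5 with the replicate block, 1 with all 9 libraries in 1 fit, 18 at any fold and 0 at 2-fold, with 1 to 4 when libraries were left out. The 6 called in R58Q became 28 at any fold, and 3 to 8 with libraries left out. The 1 called between the mutants became 3 with DESeq2, with no filter and with the replicate block, and 0 at 2-fold, with 0 to 1 when libraries were left out. The cause was not tested, except that a higher fold threshold can only lower a count. With the replicate block the calls of the members changed as given beside each, and no other member changed its call.

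Few signs turned. DDIT3 in R58Q against vector became -0.020 with upper-quartile normalization and -0.014 with total counts only. With libraries left out, log2 fold changes in S136X against vector ran from -0.19 to 0.10 for DDIT3 and from -0.13 to 0.17 for DDIT4. In R58Q against vector they ran from -0.11 to 0.11 for ASNS and from -0.12 to 0.16 for DDIT3. Between the mutants they ran from -0.11 to 0.031 for TRIB3, -0.11 to 0.048 for SHMT2, -0.30 to 0.023 for SESN2, -0.33 to 0.059 for PSAT1 and -0.24 to 0.049 for PHGDH. These scalings moved the median of all genes by at most 0.06 in size. Depth limits DDIT3, ASNS and CHAC1 most, at 109 to 363 counts per library.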
